A study of Hydra vulgaris with 5 samples.

Results

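Nematoblasts are the dividing and differentiating precursors of nematocytes, the stinging cells of Hydra. They were represented here by cell barcodes in which counts of nematocyst capsule transcripts were plentiful. A barcode with at least 200 detected genes was a member when rows described as minicollagen, nematogalectin, nowa, spinalin or cnidoin held at least 10 of its counts and at least 1% of them. This rule found 91 members among 5456 barcodes with at least 200 genes, and 13993 barcodes were deposited in all. The remaining 5365 barcodes are called the others. The members were chosen by their counts of these capsule rows, so members against others is described without a test.

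The nematocyst is an explosive organelle made inside a secretory vesicle. Its capsule wall is built from minicollagens, very short collagens that fold in the endoplasmic reticulum and are cross-linked by disulfide bonds as the wall hardens. Nematogalectin is a lectin of the nematocyst tubule. In the Hydra body column, nematoblasts arise from interstitial stem cells and divide as connected nests before each cell builds 1 capsule. Mature nematocytes then move to the tentacles.

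Single cells of strain 105 were dissociated with Pronase E and sequenced from the 3′ end with the Bio-Rad SureCell kit. The groups were the hypostome, the tip of the head around the mouth, with 2 libraries, and bisected animals regenerating the hypostome for 0, 4 and 12 h, with 1 library each. Strain and dissociation were the same in every group, and the labels do not say how many animals gave a library or whether the hypostome libraries came from separate animals. P-values therefore measure the spread between these libraries, which may be technical. With 1 library per time point, the spread of the regenerating group also includes differences between times.

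The libraries differed in depth. The deposited totals ran from 362790 counts in hypostome 1 to 2713553 at 4 h, while 110 and 168 hypostome barcodes reached 200 genes. In the regenerating libraries 2332 did so after 0 h, 2782 after 4 h and only 64 after 12 h. Barcodes carry library numbers in place of sequences, so shared sequences could not be counted (0 of 13993 names were repeated). An undescribed entry, MSTRG.22171, took 2.31%, 3.55%, 2.80% and 10.97% of the counts of members in hypostome 1, hypostome 2, 0 h and 4 h, against 6.15%, 8.14%, 13.75% and 36.8% of those of the others, and was thus lower in members of all 4 libraries. It took 4.63% in the others at 12 h.

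Members made up a larger part of the hypostome barcodes than of the regenerating ones at this depth limit. They were 14 of 110 barcodes in hypostome 1 (12.7%, exact 95% interval 7.14 to 20.4) and 16 of 168 in hypostome 2 (9.52%, 5.54 to 15.01). The 0 h library had 24 members (1.03% of its barcodes, 0.661 to 1.53). The 4 h library had 37 members (1.33%, 0.938 to 1.83), and none of the 64 barcodes from 12 h was a member. The upper limit for 12 h was 5.60% by the same exact interval and 4.69% by a floor of 3 barcodes. Both hypostome libraries lay above all 3 regenerating ones, and the mean share was 11.1% in the hypostome and 0.786% in the regenerating libraries. The difference of 10.3 percentage points had an exact two-sided permutation p of 0.1, the smallest that 10 splits of 5 libraries allow.

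The depth limit moved this difference more than any library did. With a limit of 500 genes the members were 7 of 42 and 9 of 50 hypostome barcodes (16.7% and 18%), while the 0 h library had 14 among 94 (14.9%), the 4 h library 17 among 111 (15.3%) and the 12 h library 0 among 13. There the difference was 7.26 points (exact permutation p = 0.4), and the intervals of the hypostome, 0 h and 4 h libraries overlapped. A limit of 1000 counts in place of the gene limit gave a wider gap of 14.9 points (exact permutation p = 0.2), with 10 of 43 and 12 of 52 hypostome barcodes (23.3% and 23.1%), 14 among 89 at 0 h (15.7%), 27 among 298 at 4 h (9.06%) and 0 among 15 at 12 h. Over all deposited barcodes the difference was 0.398 points (exact permutation p = 0.6), with 14 of 1008 and 17 of 2390 hypostome barcodes against 24 of 2946, 37 of 3238 and 0 of 4411. There hypostome 2 (0.711%) lay below 0 h (0.815%) and 4 h (1.14%). Members were also deeper than the others, so a larger share of members and a larger share of deep barcodes among those used cannot be told apart. The median count of members was 1364, 1773, 1260 and 1557 in hypostome 1, hypostome 2, 0 h and 4 h, against 552, 546.5, 441 and 739 in the others.

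**Figure D1:**
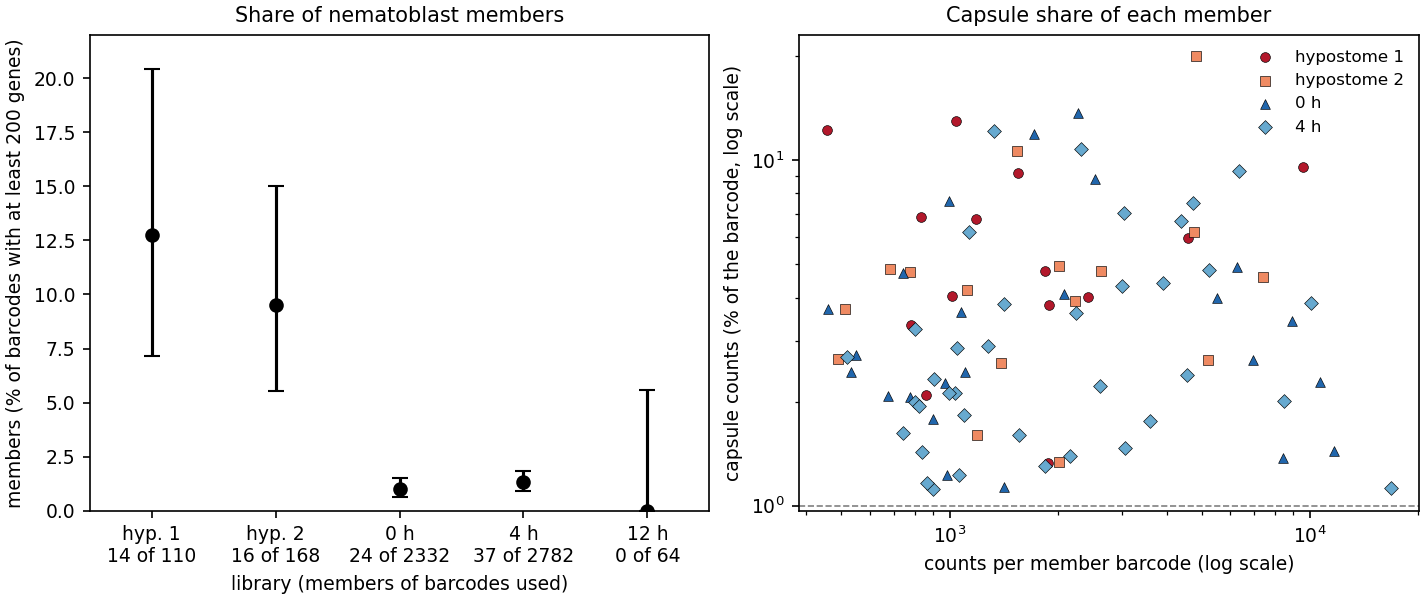
Left, members as a percent of the barcodes with at least 200 genes in each library, with exact 95% binomial intervals (hyp., hypostome). Right, each of the 91 members by its counts and the percent of them from capsule rows, both on log scales; the dashed line is the 1% limit. Hypostome shares of 12.7% and 9.52% stand above the shares at 0, 4 and 12 h, and members of every library spread between 1.12% and 19.9% capsule counts.

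The rule's words matched 11 rows, 8 minicollagen and 3 nematogalectin, and no row was described as nowa, spinalin or cnidoin. The label rests on minicollagen: minicollagen rows alone gave the same number of members in each library, and without them there were 0 members. Minicollagen 7 (MSTRG.173) gave 9699 of the 11138 capsule counts of members and was present in 91 of 91. It held 59800 and 55630 CPM (counts of an entry per 1000000 counts of the summed barcodes) in hypostome members, 29710 at 0 h and 31950 at 4 h. In the others it held 308.9 and 328.3 CPM in the hypostome, 640.6 at 0 h and 515.9 at 4 h. With barcodes thinned to 400 counts it was expected in 99.98%, 99.97%, 99.9% and 99.7% of members, against 10.3%, 12.7%, 18.2% and 16.1% of the others deep enough. Before thinning, the shares were 100% of members and 14.6%, 17.8%, 21.4% and 26.4% of the others, whose median depths were given above.

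The other capsule entries were found in fewer members. Minicollagen 9 (MSTRG.8087) had 775 counts in 54 members, minicollagen 15 (Sc4wPfr_82.1.g28987) 342 counts in 33, the nb001 minicollagen (MSTRG.8093) 130 counts in 20 and nematogalectin (MSTRG.23904) 110 counts in 20. A minicollagen 8 entry had 40 counts in 15 members and a second nb001 entry 23 counts in 12. Minicollagen 9 held 6362 and 2038 CPM in hypostome members, 2469 at 0 h and 2912 at 4 h, against 37.4, 20.9, 24.4 and 28.9 CPM in the others. Minicollagen 15 held 234.4 and 3121 CPM in hypostome members, 1113 at 0 h and 1182 at 4 h, against 9.36, 20.9, 40.3 and 19.7 CPM in the others. Nematogalectin held 267.9 and 1083 CPM in hypostome members, 204.7 at 0 h and 409.4 at 4 h, against 9.36, 0, 11.4 and 12.1 CPM in the others. Hypostome 1 was highest for minicollagen 9, and hypostome 2 was highest for minicollagen 15 and nematogalectin. These high values rest largely on single barcodes. In hypostome 1, 1 member held 115 of the 190 minicollagen 9 counts. In hypostome 2, 1 member held 89 of the 121 minicollagen 15 counts, and 1 member held all 42 nematogalectin counts. The last 4 rows had at most 10 counts each in members, and 1 of them, a nematogalectin-related entry, had 0. Counts were not divided by transcript length, so these totals do not rank the proteins.

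Capsule rows held between 1.12% and 19.9% of a member's counts, with a median of 3.43%, and exceeded 10% in 8 members. The median was 5.35% and 4.40% in hypostome 1 and 2, 2.69% at 0 h and 2.32% at 4 h. Just inside the limits lay 4 h members with 10 capsule counts (1.12% and 1.16%), and just outside lay 0 h barcodes with 9 capsule counts (1.94% and 1.61%). A hypostome 1 barcode with 14 capsule counts (0.952%) and a 0 h barcode with 21 (0.897%) missed the share limit. A hypostome 2 barcode with 15 capsule counts and 199 genes missed the gene limit.

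Members also stood apart when the rows that the rule read were left out. When the 5456 barcodes were clustered with the capsule rows left out, 78 of the 91 members fell into 1 cluster, which held 0 others. By library these were 13 of 14, 14 of 16, 23 of 24 and 28 of 37 members in hypostome 1, hypostome 2, 0 h and 4 h. Other rows that share an identifier with capsule rows were not left out. Among them were collagen-related 3 (MSTRG.8087) and the LOC100212471 row of MSTRG.173. The clustering is thus not fully separate from the rule, and the part of these rows in it was not tested. At a coarser resolution of 0.5 and a finer one of 1.5 the cluster held 78 and 79 members and again 0 others. The 13 members outside it, 9 of them at 4 h, had a median capsule share of 1.62% against 3.83% inside. Their median share of MSTRG.22171 was 23.9%, against 5.16% inside the cluster.

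Outside the capsule rows, 6185 entries had at least 50 counts in members and others together. Of these, 129 (2.09%) were at least 4-fold higher and 5 (0.0808%) at least 4-fold lower in members in all 4 libraries that held members. A count under 3 in the class divided by was raised to a floor of 3 counts per library before a ratio was taken. Only 257 entries had enough counts in every library to be called lower. At 2-fold, 202 (3.27%) were higher and 41 (0.663%) lower, and the median ratio over all 6185 was 0.707.

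The entry that stood highest was a homeobox gene of the cut-like family (MSTRG.23755), whose members in animals are DNA-binding transcription factors. It had 6529 and 2321 CPM in hypostome members, 1996 at 0 h and 2521 at 4 h, against 0, 0, 22.8 and 10.9 CPM in the others. In each library its summed level was higher in members than in the others. Its counts lay in 36 of the 91 members, all of them inside the cluster described above. The ratio was 87.4 at 0 h and 231.6 at 4 h, and at least 232.5-fold and 148.5-fold higher in the hypostome libraries, where the others had 0 counts.

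Several of the 20 leading entries are named after Hydra nematoblast clones. A pair of rows named nematoblast-specific nb054 (MSTRG.3021 and Sc4wPfr_1269.g30703) had 1298 counts in 49 members and 1714 counts in 62. The second of them held 13460 and 7428 CPM in hypostome members, 5668 at 0 h and 5406 at 4 h, against 65.5, 62.5, 126.3 and 88.4 CPM in the others. The nb035sv3 entry (MSTRG.19684) was at least 46.0-fold and the nb012a entry (MSTRG.17098) at least 33.3-fold higher in every library. Of 23 rows on the list of nematoblast, nematocyst, Dickkopf and poly-gamma-glutamate names, 10 could be compared. Of these, 9 were at least 4-fold higher, and the median ratio was 90.5. The list held 4 Dickkopf-3-like entries, named for secreted proteins, and MSTRG.4545 and Sc4wPfr_1479.g32579 had enough counts to be compared. They were at least 21.5-fold and 8.18-fold higher.

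Several leading entries carry names of repeat-rich secreted or matrix proteins. Collagen-related 3 (a second row of MSTRG.8087) had 15130 and 6474 CPM in hypostome members, 3864 at 0 h and 4159 at 4 h, against 0, 10.4, 101.2 and 52.8 CPM in the others. It was present in 78 members. A basic proline-rich-like entry (MSTRG.14146) had 19790 and 13410 CPM in hypostome members, 10900 at 0 h and 7071 at 4 h, against 9.36, 104.2, 299.8 and 212.7 CPM in the others. Hornerin-like (MSTRG.18909), brevican core (MSTRG.5989), spidroin-1-like (MSTRG.15187), mucin-2-like (Sc4wPfr_301.g13989) and mucin-17-like (Sc4wPfr_786.g1722) entries were between 34.9-fold and 62.6-fold higher in the library where the ratio was smallest. The collagen-related 3 row is described as a Hydra magnipapillata precursor. It shares its identifier with the minicollagen 9 and minicollagen 8 rows that the rule read. The other names come from resemblance to proteins of other animals, and the role of those entries in Hydra is not given in the descriptions.

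An undescribed entry, MSTRG.8089, had the most member counts outside the capsule rows among the leading entries. It held 5484 counts in 89 of 91 members, with 42560 and 25790 CPM in hypostome members, 19790 at 0 h and 15500 at 4 h. In the others it held 74.9 and 166.8 CPM in the hypostome, 598.8 at 0 h and 454.4 at 4 h. The uncharacterized LOC100209382 entry (Sc4wPfr_268.g25743) followed with 2955 counts in 82 members.

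**Figure D2:**
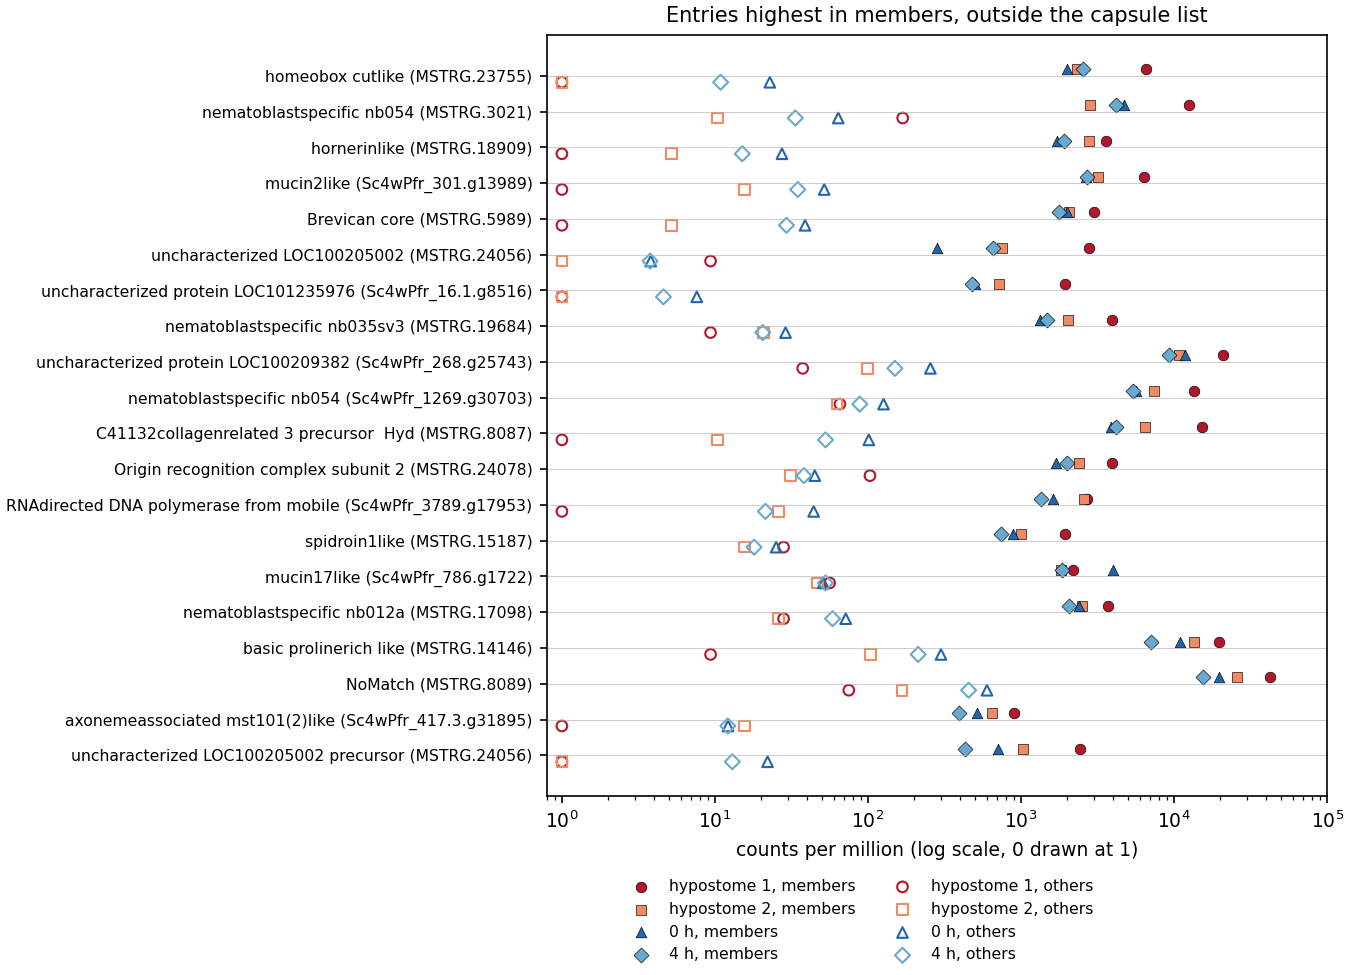
CPM (log scale, 0 drawn at 1) of the 20 entries outside the capsule rows with the highest smallest ratio of members over others. Filled symbols are members and open symbols the others, 1 of each per library. In every row the 4 filled symbols lie to the right of all 4 open ones.

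The secretory pathway was higher in part. Of 192 rows on the secretory pathway and collagen processing, 79 could be compared, and 6 were at least 4-fold and 19 at least 2-fold higher in all 4 libraries. The median ratio of the list was 1.41, against 0.707 over all entries. The 6 were a protein disulfide-isomerase A3 entry (MSTRG.18377), 3 prolyl 4-hydroxylase entries, peptidyl-prolyl cis-trans isomerase B (MSTRG.7456) and an FKBP10-like isomerase (MSTRG.11303). Of the 3 hydroxylases, Sc4wPfr_263.1.g30991 is named as an alpha-1 subunit. The entries Sc4wPfr_950.g24015 and Sc4wPfr_65.g31726 are named as transmembrane prolyl 4-hydroxylases. Another alpha-1-like entry (Sc4wPfr_326.g15667) did not pass, with a smallest ratio of 3.58. Disulfide isomerases form and shuffle disulfide bonds. Prolyl 4-hydroxylases with alpha-1 subunits modify collagen prolines, and both peptidyl-prolyl isomerases assist the folding of collagen in vertebrates.

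Disulfide-isomerase A3 had 1908 and 1161 CPM in hypostome members, 1126 at 0 h and 1330 at 4 h, against 18.7, 0, 40.3 and 32.3 CPM in the others. It was found in 59 members. Peptidyl-prolyl isomerase B had 870.5 and 980.1 CPM in hypostome members, 703.7 at 0 h and 1005 at 4 h, against 56.2, 88.6, 106.5 and 125.6 CPM in the others. Both were higher in members of every library, by at least 27.9-fold and 6.61-fold. Similarly named rows stood less high. An A3-like disulfide-isomerase row (Sc4wPfr_17.g15830) had ratios between 1.75 and 2.59. Another isomerase B row (Sc4wPfr_201.1.g33262) lay between 3.28 and 6.93, and an isomerase B-like row (Sc4wPfr_326.g15644) between 0.8998 and 1.79.

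The most counted folding factors differed by less than MSTRG.18377 and MSTRG.7456. The chaperone glucose-regulated protein 94 (MSTRG.7015) had 4520 and 3946 CPM in hypostome members, 2981 at 0 h and 2289 at 4 h, against 1039, 901.6, 984.5 and 690.1 CPM in the others. Its ratios lay between 3.03 and 4.38. Endoplasmin is another name for this chaperone, and its other rows did not share this: a second row of MSTRG.7015 had 0 and 180.5 CPM in hypostome members, 742.1 at 0 h and 483.8 at 4 h, against 468, 344, 582.8 and 301.5 CPM in the others. The Endoplasmin entry Sc4wPfr_196.1.g29670 was lower in members of every library, with 11 counts in members and ratios between 0.0779 and 0.795. The calreticulin entry MSTRG.14506, a calcium-binding chaperone, had ratios between 1.698 and 2.36. A second calreticulin entry (Sc4wPfr_384.g24822) lay between 0.671 and 1.99, so it was lower in members of hypostome 1.

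Among 165 rows of lineage factors, 9 could be compared and 1, the cut-like entry, was at least 4-fold higher in all 4 libraries. Cut-like was added to this list after the tables were seen, and none of the other entries passed. A second cut-like row (Sc4wPfr_80.g19902) had 33.5 and 103.2 CPM in hypostome members, 51.2 at 0 h and 93.04 at 4 h, against 9.36, 10.4, 24.4 and 17.2 CPM in the others, on 19 counts in members. PaxA (Sc4wPfr_251.g2461), a transcription factor needed for stinging cells in the sea anemone Nematostella, had 66.96 and 154.7 CPM in hypostome members, 332.7 at 0 h and 260.5 at 4 h. In the others it had 0, 10.4, 15.98 and 8.38 CPM. It was found in 27 members, and its hypostome 1 value rests on 2 counts. A myc entry (Sc4wPfr_73.g11571), a growth regulator of stem cells, was at least 3.58-fold higher with 39 counts in members.

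Toxin and cell division entries were sparse. A phospholipase A2 entry (Sc4wPfr_599.g27243), an enzyme family found in venoms, had 904 and 103.2 CPM in hypostome members, 294.3 at 0 h and 511.7 at 4 h, against 0, 0, 7.61 and 5.86 CPM in the others. It was the 1 of 5 compared toxin entries that was at least 4-fold higher. Of 20 cell division entries 0 passed 2-fold in either direction, and their summed level was 0.467 and 0.758 of the others in hypostome 1 and 2, 1.07 at 0 h and 1.69 at 4 h. The DNA clamp PCNA had 11 counts in 8 members, and ribonucleotide reductase M entry Sc4wPfr_85.1.g31222 had 42 counts in 16. Of 12 stem cell entries, which include pumilio-related RNA-binding proteins, 0 passed 2-fold.

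Lists of other cell types had median ratios of members over others below the 0.707 of all entries, but few of their entries were lower in every library. The median ratio was 0.230 over 47 gland entries, 0.344 over 18 neuron entries, 0.290 over 41 endodermal, 0.404 over 56 ectodermal and 0.520 over 6 germ line entries. At 2-fold, 4 gland, 1 neuron, 10 endodermal, 0 ectodermal and 0 germ line entries were lower in all 4 libraries. The summed neuron level was 870.5 and 722.2 CPM in hypostome members, 972.4 at 0 h and 679.2 at 4 h, against 14600, 4185, 883.4 and 711.5 CPM in the others. It was lower in members of the hypostome libraries and near the others at 0 h and 4 h. In the others of hypostome 1, polRFamide neuropeptides (MSTRG.19311) alone held 11680 CPM, against 542 in those of hypostome 2. The summed gland level was 9978 and 7634 CPM in hypostome members, 8572 at 0 h and 6922 at 4 h. In the others it was 4109, 11460, 9873 and 5568 CPM, so the sum was higher in members of hypostome 1 and 4 h. Most of that sum came from the mucin-2-like and mucin-17-like entries. They held 6328 and 2176 CPM in hypostome 1 members, and 2698 and 1842 CPM in 4 h members. In the others they held 0 and 56.2 CPM in hypostome 1, and 34.8 and 52.8 CPM at 4 h. The summed ectodermal level was between 3894 and 8649 CPM in members and between 9033 and 12030 CPM in the others. The summed endodermal level was between 7170 and 9375 CPM in members and between 12920 and 19330 CPM in the others. Of the matched rows, 75 of 146 gland, 130 of 175 neuron, 34 of 77 endodermal and 62 of 137 ectodermal rows were at 0 in members, as were 118 of 165 lineage factor and 76 of 192 secretory rows.

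Of the 5 entries at least 4-fold lower in members, 4 carry protease names. Cathepsin L1-like Sc4wPfr_1040.g7609, a lysosomal protease, had 100.4 and 129 CPM in hypostome members, 179.1 at 0 h and 74.4 at 4 h, against 1114, 891.2, 1325 and 417.9 CPM in the others. Chymotrypsinogen B-like Sc4wPfr_41.g30759, a gland cell product, had 33.5 and 103.2 CPM in hypostome members, 537.4 at 0 h and 251.2 at 4 h, against 439.9, 3857, 3180 and 1297 CPM in the others. Members were below the others in each library for both. The other 3 entries at least 4-fold lower were a second cathepsin L1-like entry (Sc4wPfr_246.g4335), caspase 7 (MSTRG.2379), a protease of programmed cell death, and an ankyrin subunit of phosphatase 6 (Sc4wPfr_2615.g7186).

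A few entries on other cell type lists were high in members. They were the 2 mucin-named entries on the gland list, a glutathione peroxidase-like entry (MSTRG.23130) on the endodermal list and a rhamnose-binding lectin (MSTRG.557) on the ectodermal list. The glutathione peroxidase-like entry had 4721 and 2940 CPM in hypostome members, 2776 at 0 h and 2335 at 4 h, against 28.1, 46.9, 85.98 and 82.08 CPM in the others. It was found in 76 of 91 members.

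**Figure D3:**
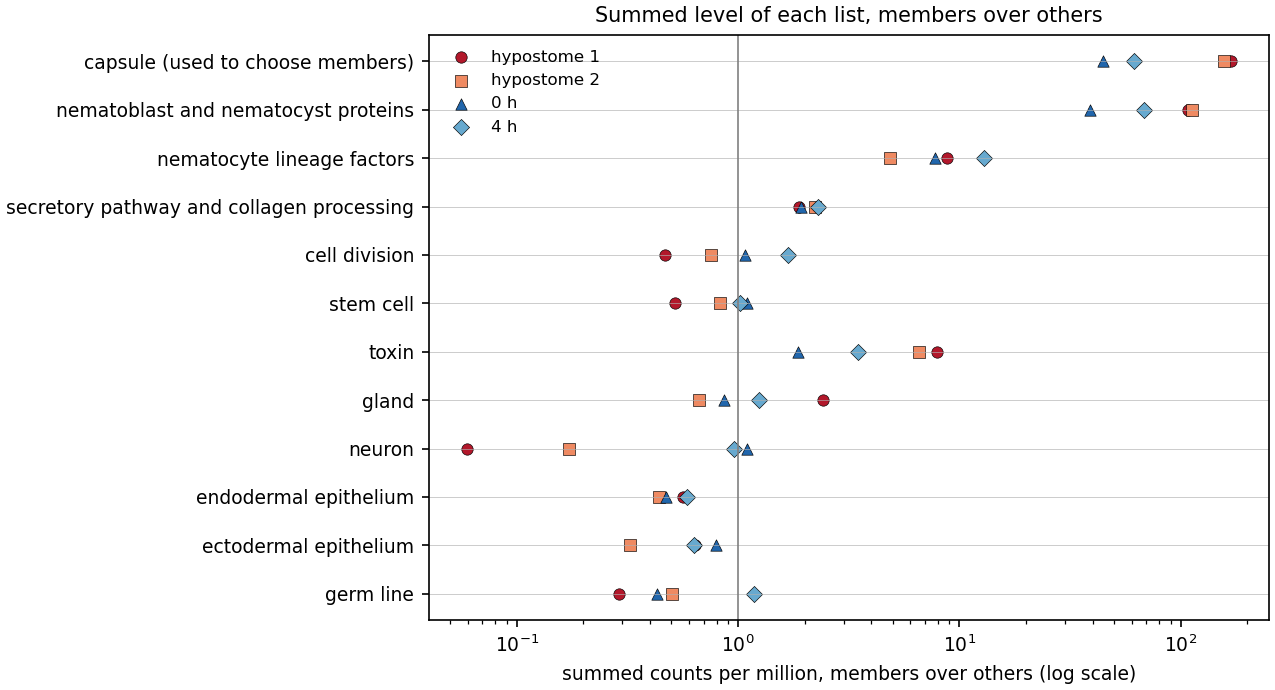
Summed CPM of each list in members over that in the others, on a log scale, 1 symbol per library; the vertical line marks equal levels. The capsule list chose the members. The nematoblast and nematocyst list lies between 38.95 and 112.4, secretory entries between 1.89 and 2.297, and endodermal entries between 0.437 and 0.588.

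Members differed among themselves. Minicollagens 9 and 15 were seldom found in the same barcode: 42 members had at least 3 counts of minicollagen 9, 16 had at least 3 of minicollagen 15, 3 had both and 36 had neither. In all 4 libraries the members with both numbered at most 2. The Spearman correlation of their shares of a barcode's counts was -0.59 over 91 members, which share libraries and a total. Both entries are among the capsule rows that chose the members, so this pattern is a description of the chosen barcodes. Depth itself had correlations of 0.06 and 0.15 with the 2 entries.

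The entries that went with minicollagen 9 across members were nb054 (0.78 and 0.74 for its 2 rows), LOC100209382 (0.76), the cut-like homeobox gene (0.69) and the phospholipase A2 entry (0.63). With minicollagen 15 went the formin row of MSTRG.24081 (0.54), named for an actin nucleator. Glucose-regulated protein 94 went with calreticulin (0.63) and Sec61 alpha (0.58), and also with depth (0.53).

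**Figure D4:**
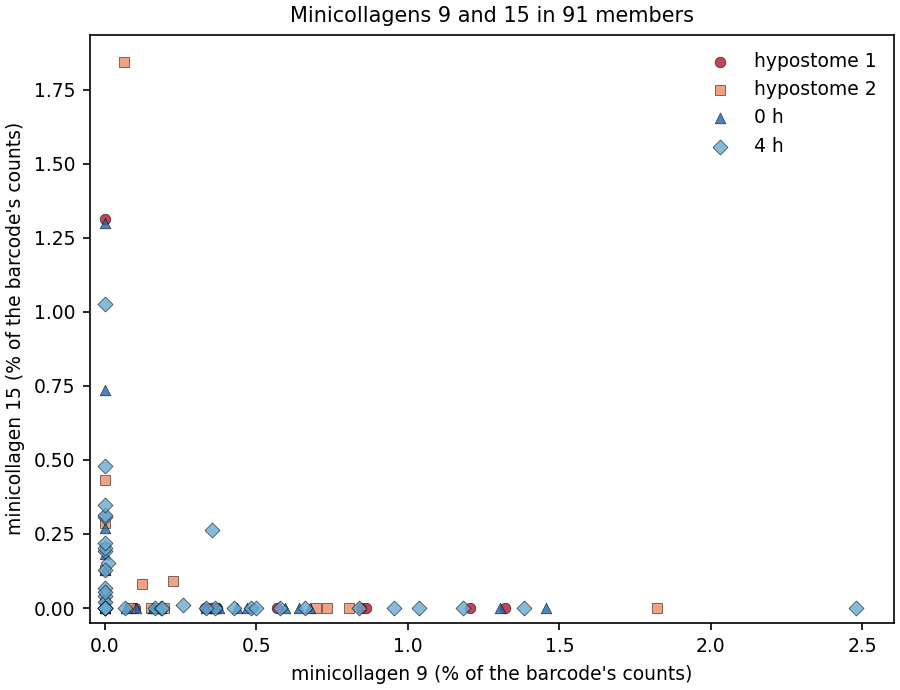
Minicollagen 9 and minicollagen 15 as percents of the counts of each of the 91 members, with symbols by library. Most points lie on 1 of the axes, and 3 members have at least 3 counts of both.

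Some entries were confined to small sets of members. Of 317 entries with at least 100 counts in members, 22 had over 80% of them in 9 barcodes, and the median entry had 51.2% there. Collagen alpha-5(VI) (Sc4wPfr_356.g7067) had 330 counts in 7 members, an anoctamin-4-like entry (Sc4wPfr_325.1.g5350) 306 in 12, and a rhamnose-binding lectin-like entry (Sc4wPfr_508.g5883) 125 in 9. The 7 members with the collagen all had the lectin, and 6 of them had minicollagen 15. Anoctamins are membrane proteins that act as ion channels or lipid scramblases.

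The tissue difference within members was tested on counts summed per library, in 2 hypostome against 2 regenerating libraries (0 and 4 h). Of 701 entries, edgeR's quasi-likelihood test called 2 (0.285%) at an adjusted p of 0.05, and 82 had an unadjusted p under 0.05. KS1 (Sc4wPfr_661.g19812), a head-specific ectodermal gene, was the 1 higher in hypostome members (0.143% of entries tested), and collagen alpha-5(VI) the 1 lower (0.143%).

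KS1 had 1105 and 644.8 CPM in hypostome members and 51.2 at 0 h and 18.6 at 4 h. The groups did not overlap, and 17 of 30 hypostome members and 5 of 61 regenerating members had a count. The log2 fold change was 4.77 ± 0.65 (SE; edgeR adjusted p = 0.0428, 7.99e-06 to 0.521 over 13 alternatives). KS1 was also present in the others, with 1938 and 2137 CPM in the hypostome, 273.1 at 0 h and 117.7 at 4 h, above the members of the same library throughout. The difference between members and others in this tissue change was 1.49 ± 0.65 on the log2 scale (SE; edgeR adjusted p = 0.392). Whether free transcripts account for KS1 in members was not tested. When 4 h was left out the call was lost (edgeR adjusted p = 0.521), as it was with limma (adjusted p = 0.187).

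Collagen alpha-5(VI) had 0 CPM in members of both hypostome libraries, 2098 at 0 h and 1544 at 4 h. With 3 counts per hypostome library as a floor it was at least 20.5-fold lower in hypostome members (edgeR adjusted p = 0.0168, 1.01e-18 to 0.173 over 13 alternatives). Its counts lay in 7 of 61 regenerating members, with up to 139 in 1 of them, and in 0 of 30 hypostome members. When 4 h was left out the call was lost (edgeR adjusted p = 0.173), as it was with limma (adjusted p = 0.0905).

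The next entries did not pass. A GATA zinc finger entry (MSTRG.12373) had 33.5 and 0 CPM in hypostome members against 703.7 at 0 h and 1051 at 4 h (edgeR adjusted p = 0.0719). Anoctamin-4-like had 0 and 103.2 CPM in hypostome members against 1267 and 1889 (edgeR adjusted p = 0.0719). MSTRG.22846 had 21090 and 22900 CPM in hypostome members against 8982 and 9955 (log2 fold change 1.33 ± 0.27 SE, edgeR adjusted p = 0.136). In 267 of the 701 entries (38.1%) the tissues did not overlap.

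**Figure D5:**
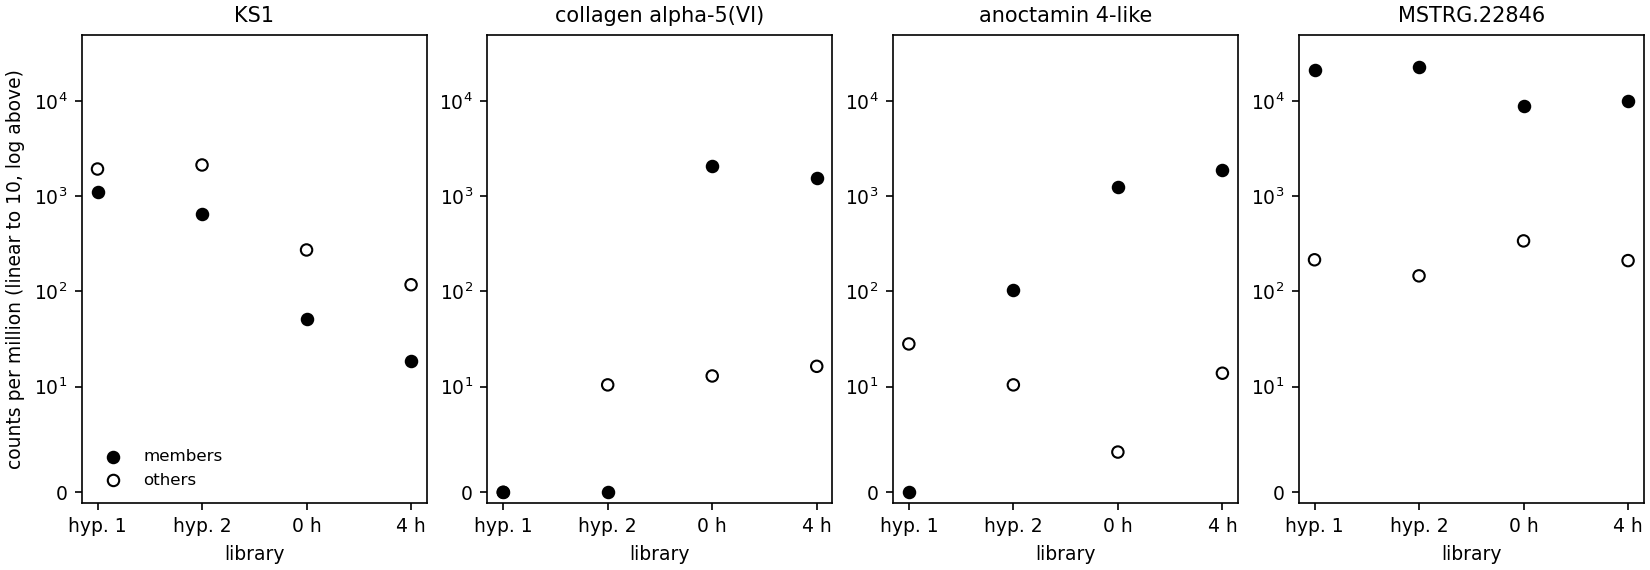
CPM (linear to 10, log above) of 4 entries in members (filled) and others (open) of hypostome libraries 1 and 2 (hyp.) and of the 0 h and 4 h libraries. KS1 is higher in the hypostome in both classes, while collagen alpha-5(VI) and anoctamin-4-like are high only in members at 0 h and 4 h; MSTRG.22846 is higher in members of all 4.

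Whether the tissue difference in members departed from that in the others was tested with each library as a block. Of 1872 entries edgeR called 20 (1.07%), 15 higher (0.801%) and 5 lower (0.267%) in hypostome members relative to their others, and 213 had an unadjusted p under 0.05. Minicollagen 7 was 1 of the 20, but the rule read it, so it is set aside. Of the 19 left, 9 were among the entries at least 4-fold higher in members. These 9 share barcodes with the capsule counts that chose the members. Among them, collagen-related 3 also shares its identifier with the minicollagen 9 row that the rule read.

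MSTRG.8089, collagen-related 3 and MSTRG.22846 led that group, with interaction terms of 3.16 ± 0.38, 4.93 ± 0.65 and 2.12 ± 0.28 (log2, SE; edgeR adjusted p = 0.000714, 0.000999 and 0.000999). The hypostome others held 215.3 and 145.9 CPM of MSTRG.22846, and the regenerating others 340.1 (0 h) and 211.1 (4 h). The levels of all 3 show both sides: the hypostome members were higher than the regenerating members, and the hypostome others were lower than the regenerating others, except that MSTRG.22846 overlapped in the others. Without hypostome 1, edgeR called 0 of the entries, and without the library block it also called 0 (193 with an unadjusted p under 0.05). Limma called 0 as well.

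On the other side, centromere F-like MSTRG.3967, a kinetochore protein of dividing cells, had 200.9 and 25.8 CPM in hypostome members, 179.1 at 0 h and 288.4 at 4 h, against 355.7, 250.2, 21.3 and 31.4 CPM in the others. Its interaction term was -4.39 ± 0.78 (log2, SE; edgeR adjusted p = 0.0133, 0.00145 to 0.339 over 14 alternatives). Members at 0 h and 4 h were above their others, and hypostome members were below theirs. Its counts lay in 2 of 30 hypostome and 10 of 61 regenerating members.

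Members at 4 h were set beside members at 0 h, with 1 library each and no replicate check. Of 466 entries with at least 50 counts, 13 (2.79%) were at least 4-fold higher at 4 h. None (0%) was as much lower. Over all 466 the log2 ratio had a median of -0.10. A Hsp-like heat shock entry (Sc4wPfr_356.g7153) had 530.3 CPM at 4 h and 63.97 at 0 h, an 8.29-fold ratio (interval 3.35 to 26.5), with counts in 13 members at 4 h and 3 at 0 h. The uncharacterized LOC100212471 row of MSTRG.173 had 1870 CPM at 4 h and 268.7 at 0 h, in 12 and 3 members. The largest ratio, of a centrosomal CEP290-like entry (MSTRG.17355), rests on a level of 1610 CPM at 4 h against 0 at 0 h, with counts in 4 members and 154 of them in 1. On the low side, a Kunitz-type protease inhibitor (MSTRG.308) had 530.3 CPM at 4 h and 1778 at 0 h, 3.35-fold lower (interval 2.45 to 4.65). Intervals cover counting error only.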

How the data were processed

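Per the labels, cells were dissociated with Pronase E and libraries made with the SureCell 3′ kit, and per the submitters' processing notes kallisto 0.46.1 was used; the genome build is not given in the sources used here. The deposited files hold raw counts per entry (identifier and description) and barcode, 46156 entries in 5 files. Members and lists were chosen with earlier results of these data known, and lists were trimmed, and the cut-like entry added, after the tables were seen. Members and others were summed per library, and 4 libraries with at least 10 members were compared. Tests were edgeR 4.0.16 (quasi-likelihood, TMM, filterByExpr, Benjamini-Hochberg adjustment) in R 4.3.3, with DESeq2 1.42.0 and limma 3.58.1 as alternatives. The SE printed with a log2 value was derived from the edgeR test, as the absolute log2 value divided by the square root of its F statistic. Only the edgeR tests were run on simulated data, with 200 entries changed by known folds and a common dispersion. The test within members recovered 79% of these with 2 false calls. The interaction test recovered 46.5% with 3 false calls, so it misses many changes. Clustering used scanpy 1.11.5 (2000 variable entries chosen, 30 components, 15 neighbours, Leiden 0.8). Ratios and shares carry exact binomial 95% intervals, which cover counting error only. Scrublet called 44 of 5456 barcodes doublets, 4 of them members of hypostome 1, but only 5 at 0 h and 0 at 4 h, so doublets were kept.

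Named entries were the capsule rows with at least 20 member counts, the 20 highest and 10 lowest of members over others (some summarised), the 3 most counted per list, up to 5 called each way per tissue test or else the smallest p, and those nearest the limits. Entries that make up a small count, myc, PCNA, ribonucleotide reductase, second rows of a gene, the Dickkopf-3-like, concentrated and 4 h against 0 h entries were chosen after their values were seen. Several identifiers, among them MSTRG.173, MSTRG.8087, MSTRG.7015, MSTRG.24056 and MSTRG.24081, each cover rows with different descriptions, so counts of neighbouring or overlapping genes may be split among them.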

Additional observations from a re-analysis of the deposited data

Results flagged for a closer look

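The test of the tissue difference in members against that in the others called 20 entries. Some of those called higher and all 5 called lower are given with their interaction terms (log2, hypostome over regenerating, members minus others). Each has an edgeR adjusted p from 2 against 2 libraries. Higher in hypostome members relative to their others were carbonic anhydrase Sc4wPfr_629.1.g28767 (10.68, edgeR adjusted p = 0.0413), an uncharacterized LOC100205002 row of MSTRG.24056 (7.70, adjusted p = 0.0315), collagen-related 3 of MSTRG.8087 (4.93, adjusted p = 0.000999), an undescribed row of MSTRG.24081, not its formin row (4.75, adjusted p = 0.0449), LOC100202370 of MSTRG.23257 (4.22, adjusted p = 0.0142), MSTRG.8089 (3.16, adjusted p = 0.000714) and MSTRG.22846 (2.12, adjusted p = 0.000999). The first 2 rest on hypostome others at 0 in both libraries, so their fitted values are no bound, and the carbonic anhydrase counts lay in 3 hypostome members, 47 of them in 1.

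Lower were centromere F-like MSTRG.3967 (-4.39, edgeR adjusted p = 0.0133), AHNAK MSTRG.22204 (-2.66, adjusted p = 0.0223), MSTRG.10193 (-1.98, adjusted p = 0.0266) and MSTRG.10463 (-1.91, adjusted p = 0.00612). AHNAK, a large scaffold protein, had 167.4 and 180.5 CPM in hypostome members, 614.1 at 0 h and 465.2 at 4 h, against 1432, 938.1, 533.4 and 388.6 CPM in the others. None of these calls remained without hypostome 1.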

How the results depend on the processing

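The mean share of members stayed higher in the hypostome under 18 of 19 alternatives, by 0.398 to 14.9 points (8.74 to 11.9 leaving out 1 library). Without minicollagen entries it was 0 in every library, a difference of 0. The 12 h library, with 0 members, lowers the regenerating mean wherever it is included. With 100 genes, hypostome 2 (0.714%) lay below 0 h (0.815%) and 4 h (1.15%). Over all deposited barcodes it also lay below both. Minicollagen entries only, and totals without MSTRG.22171, left the number of members in each library unchanged. No paired analysis was possible because the tissues share fewer than 2 replicate numbers. Entries higher in members than in others numbered 88 to 150 at 4-fold and 202 at 2-fold (98 to 144 leaving out 1 library). Lower entries numbered 41 at 2-fold, 3 at 20 counts and 2%, 10 without MSTRG.22171, 2 without doublets, and 7 to 10 leaving out 1 library. For 4 h against 0 h the count of 13 became 47 at a minimum of 20 counts (29 higher, 18 lower), 6 at 100, 63 at 2-fold and 8 in the leading cluster. Calls within members, 2, became 12 (DESeq2), 0 (limma), 5 (library totals), 32 (no filter), 9 (5 counts and 0.5%), 6 (20 counts and 2%), 12 (no doublets) and 0 to 42 leaving out 1 library, 0 without 4 h and 42 without hypostome 2. The 20 interaction calls became 13, 0, 35 (14 higher), 26, 69, 10 and 28 under the same settings, 53 in the leading cluster, 0 with no replicate block and 0 to 30 leaving out 1 library. The causes were not tested. With 500 genes only 7 and 9 hypostome members remained, so no tissue test was made. Only the 4 libraries compared held any member, so admitting libraries with fewer than 10 members could not change the set. Alternatives on doublets, the leading cluster and 4 h against 0 h were chosen after seeing the data.

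Single-entry directions reversed as follows (log2). Within members, minicollagen 15 (main value 0.66) was -0.41 in limma and -2.13 to 1.54 leaving out 1 library. Leaving out 1 library, nematogalectin (main value 1.23) was -0.08 to 1.88 and minicollagen 9 (main value 0.77) -0.30 to 1.39. The nb001 entry MSTRG.8093 (main value 0.42) was -0.06 unfiltered, -0.27 without doublets and -0.34 to 0.97 leaving out 1 library. All of these are capsule rows that the rule read, so here and in the interaction their values only describe the chosen barcodes. In the interaction, leaving out 1 library gave -0.33 to 2.19 for minicollagen 15 (main value 1.71) and -0.46 to 5.32 for nb001 (0.74). It gave -0.04 to 2.60 for KS1-like MSTRG.21513 (1.44) and -6.37 to 0.76 for the lectin Sc4wPfr_508.g5883 (-0.87). It gave -5.05 to 2.07 for GATA MSTRG.12373 (0.46), which was also -1.50 in DESeq2, -3.59 in limma and -5.03 without doublets. Of 91 members 20 had under 20 capsule counts, and 3 counts equal 100.4 and 77.37 CPM in hypostome members, which limits what can be called lower.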
